A study of Mus musculus with 8 samples.

Results

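The 10 apolipoprotein genes Apoa1, Apoa2, Apoa4, Apoa5, Apob, Apoc1, Apoc2, Apoc3, Apoe and Apom were followed across mouse liver arrays. Members were found by gene symbol in the array's probe annotation, and the brightest probe of each gene was used. They are 10 of 19321 genes with a named probe and of 16798 genes tested. RNA came from tumour tissue of high fat diet livers (3 arrays, mice 117, 186 and 1), non-tumour tissue of the same 3 livers, and normal diet livers (2 arrays, mice 117 and 120). Every mouse, those on normal diet included, had received DMBA, a polycyclic aromatic hydrocarbon carcinogen, when 4 to 5 days old. Each was then kept on its diet for 30 weeks. The number 117 occurs on both diets and cannot be the same animal. Strain, sex and the number of tumours behind a tumour sample are not given in the sources used here.

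Apolipoproteins are the protein part of the particles that carry lipids in blood, and the liver makes most of them. Apolipoprotein B forms the backbone of very low density lipoprotein, apolipoprotein A-I that of high density lipoprotein (HDL), and the small exchangeable members move between particles. Some steer lipoprotein lipase, the enzyme that releases fatty acids from circulating triglyceride: apolipoprotein C-II is its required cofactor, apolipoprotein A-V promotes its action, and apolipoproteins C-III and C-I hold it back. Apolipoprotein E is the ligand for receptors that clear remnants from blood.

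Levels are deposited normalized intensities, scaled by the authors so that the median listed probe of each array is 25. A level belongs to 1 probe and is not compared between genes. Each log2 fold change stands with its SE and with limma's Benjamini-Hochberg adjusted p over the whole tested set, and a gene was called where that p was below 0.05. All 10 members were tested and had a value on all 8 arrays. Of the array's probes 81.8% to 88.5% were listed per array, and normalized log2 values correlated at 0.984 to 0.996 within groups and at 0.919 to 0.983 between them. All 20 hepatocyte markers, such as Alb and Ttr, were listed on every array of every group. The 3 comparisons share arrays, so their results are not independent of each other. In bulk tissue, fewer cells of a type and less RNA per cell cannot be told apart.

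In tumour against non-tumour tissue of the same livers, Apom, Apoc2, Apoa4 and Apoa1 rose and Apoa2 fell. The other 5 members, Apoa5, Apob, Apoc1, Apoc3 and Apoe, were not called in this test, which did not pair arrays by liver. With the mouse as a block in limma Apoc3 was called too (adjusted p = 0.0192). Across all tested genes 25.4% were called, 12% higher and 13.4% lower, so the members' 5 of 10 stands beside that background. Among the 1161 tested genes with a probe at least as bright as the dimmest member, 54.5% were called, given here as a description. The median log2 change was 0.26 over the members and -0.0061 over all genes, and the median absolute change was 0.52 over the members and 0.08 over all genes. No median was taken over the 1161 bright genes alone, and the offset used in processing understates folds of dim genes. The part of brightness in the members' larger absolute change was not tested.

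Outside tumours, Apoa4 and Apoc2 rose in high fat diet non-tumour tissue against normal diet liver and none of the 10 members was called lower. The Apom change of -0.84 was not called (adjusted p = 0.0585). Of all tested genes 3.84% were called, 1.81% higher and 2.03% lower. Among the 1161 bright genes 9.39% were called. The member median was 0.19 against -0.0050 over all genes (log2). Over all genes 304 were called higher and 341 lower, a split that became 1084 and 319 with arrays scaled to the same median in place of quantile normalization, and 446 and 283 with the blank mean subtracted.

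In tumour tissue against normal diet liver, Apoa4, Apoc2, Apom and Apoa1 rose and Apoa2 fell. Of all tested genes 27.8% were called, 12.9% higher and 14.9% lower, and 52.1% of the 1161 bright genes. The member median was 0.35 against -0.012 over all genes (log2). Over all genes 2163 were called higher and 2511 lower, and 1522 and 3430 on the authors' deposited values. With each spot's local background in place of the blank spots, the calls of all members but Apom were lost in all 3 comparisons, and those of Apom in tumours held.

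**Figure D1:**
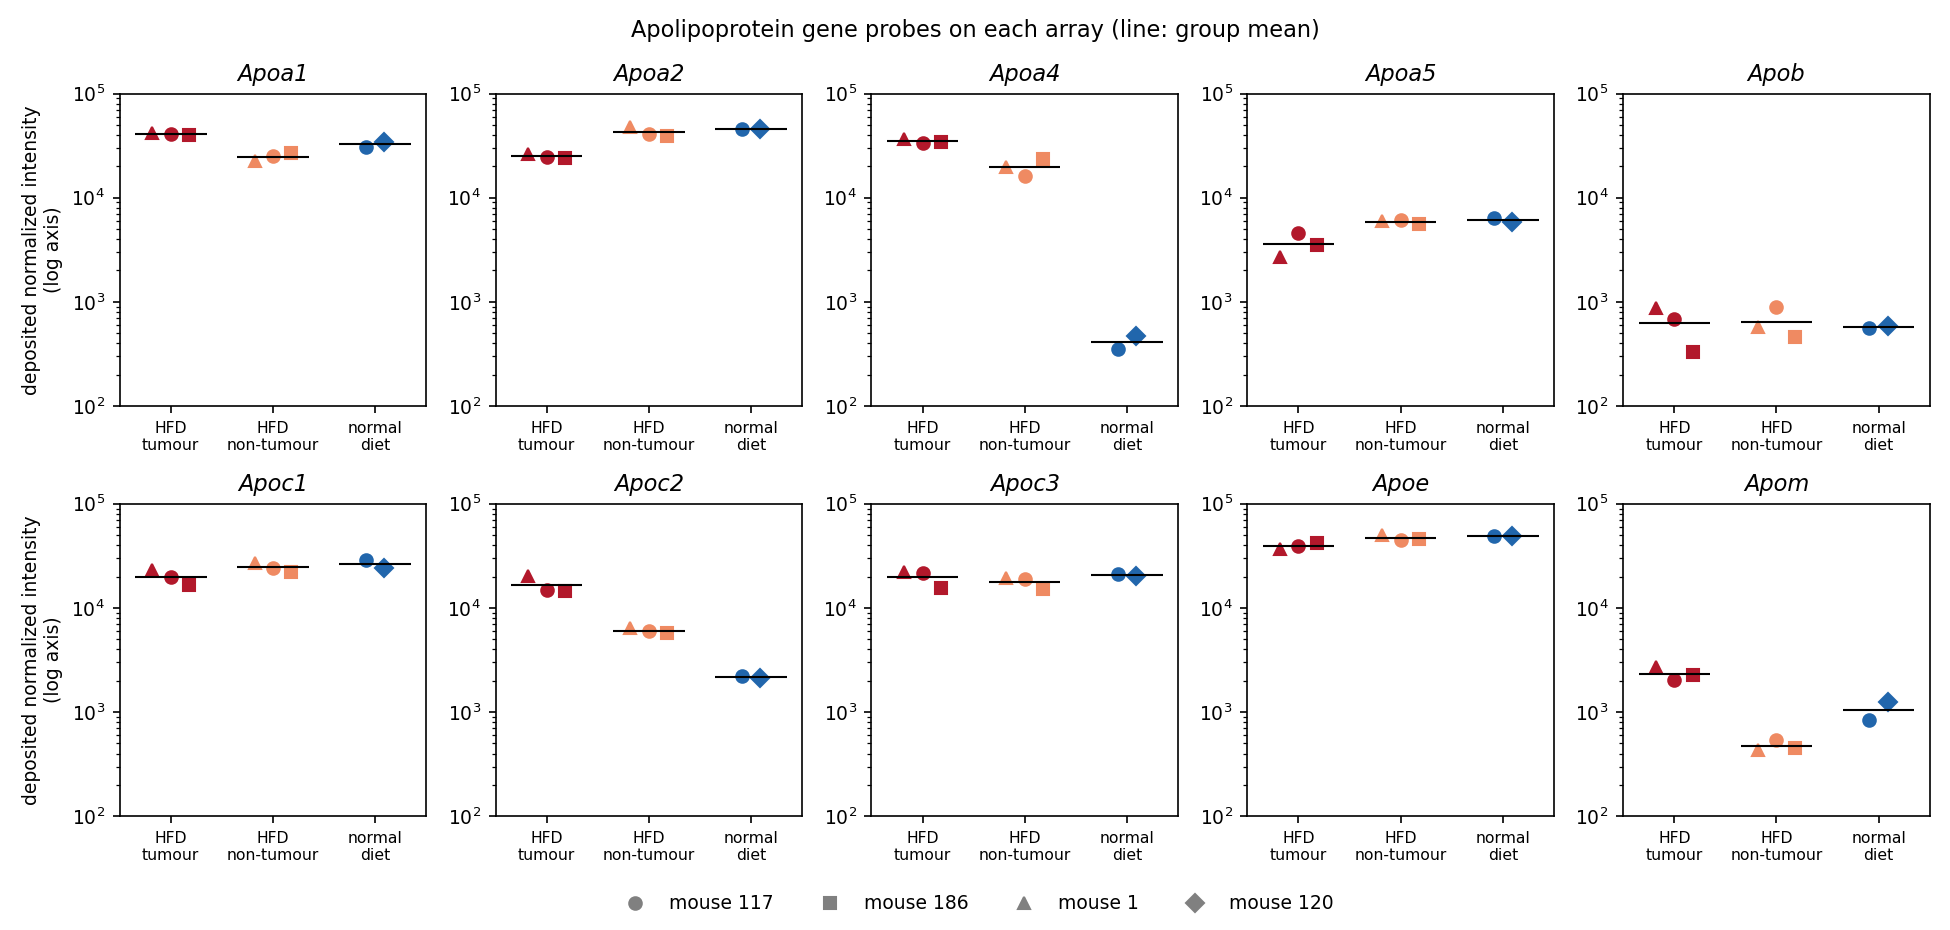
Deposited normalized intensity (log axis) of the 10 apolipoprotein gene probes on each of the 8 arrays, from left to right high fat diet (HFD) tumour, high fat diet non-tumour and normal diet. Points are arrays, marked by mouse number, and lines are group means. The circle on normal diet is another animal than the circles on high fat diet. Apoa4 lies between 33639.8 and 36938 in tumours, between 15996 and 23731 in non-tumour tissue, and at 349 and 467 on normal diet.

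**Figure D2:**
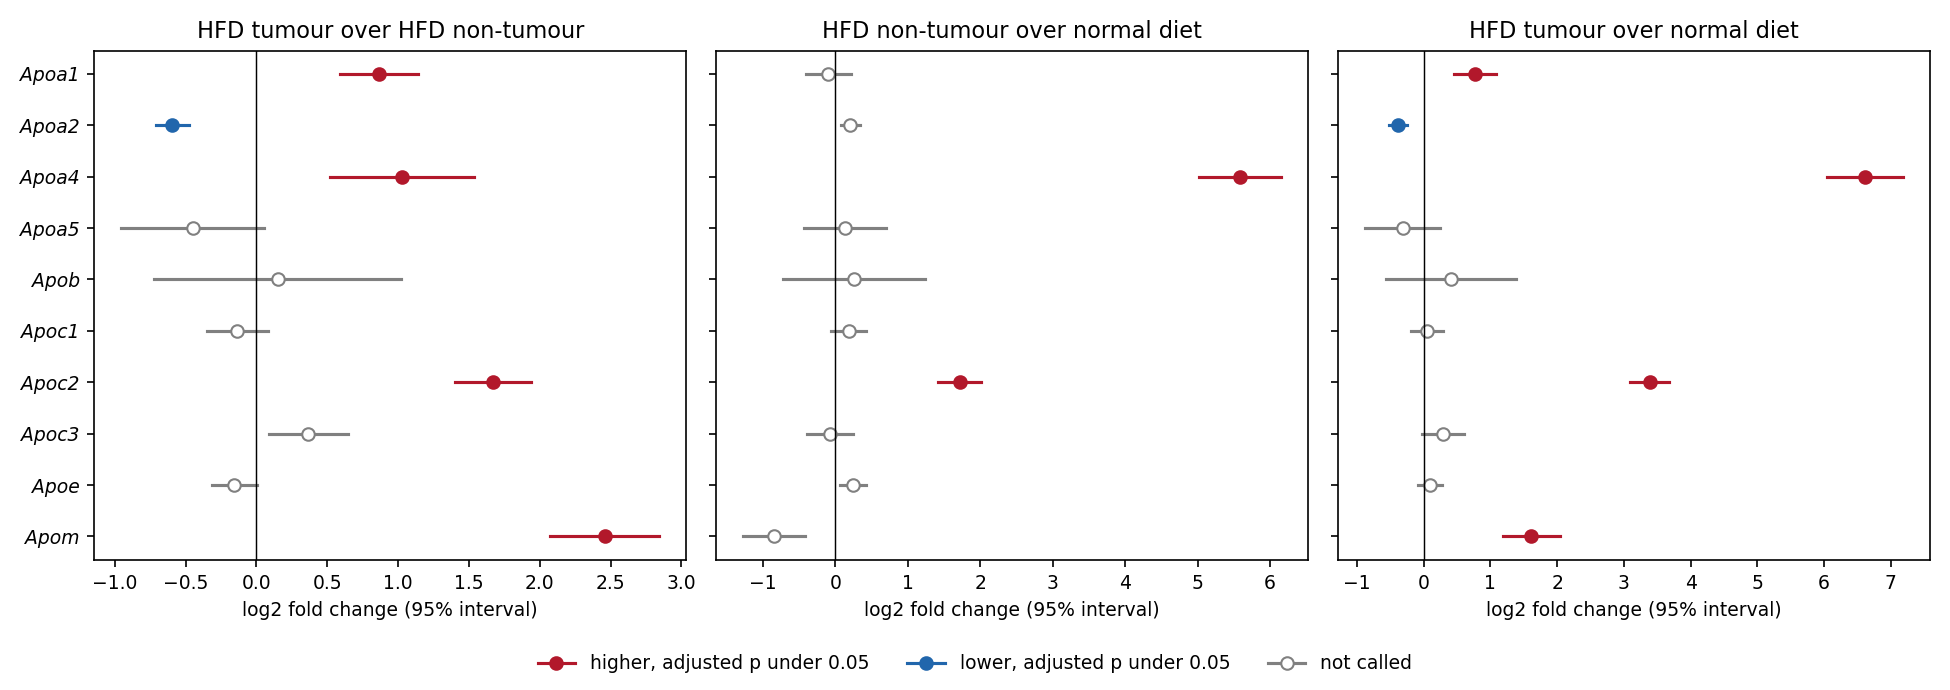
Log2 fold changes of the 10 genes with 95% intervals from limma, for tumour over non-tumour tissue, non-tumour tissue over normal diet liver, and tumour over normal diet liver. Filled points have an adjusted p under 0.05. Apoa4 reaches 5.59 and 6.62 against normal diet, and Apom 2.46 in tumour over non-tumour tissue.

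Apoa4 encodes apolipoprotein A-IV, a protein of chylomicrons and HDL that is made mainly in the intestine and, in mice, also in the liver. Its intensity was 33639.8, 34059.9 and 36938 in the tumours of mice 117, 186 and 1. It was 15996, 23731 and 19577 in the non-tumour tissue of the same mice, and 349 and 467 in normal diet livers. The 3 groups did not overlap, with normal diet livers far below both high fat diet tissues. Non-tumour tissue exceeded normal diet liver by a log2 fold change of 5.59 ± 0.24 (adjusted p = 0.000894), and the group means were 19768 ± 3871 (SD, n = 3) and 408 ± 83.3 (SD, n = 2), a ratio of 48.4. In that comparison 1 of the 16798 tested genes had a larger absolute change.

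Tumours exceeded normal diet liver for Apoa4 by 6.62 ± 0.24 (adjusted p = 5.14e-05), with 34879 ± 1795 in tumours (SD, n = 3), and again 1 gene had a larger fitted change. On deposited means the Apoa4 ratio was 85.4, beside 302 for Ly6d and 94.4 for Prkcq. Tumour tissue exceeded the non-tumour tissue of its own liver 2.1-fold in mouse 117, 1.44-fold in mouse 186 and 1.89-fold in mouse 1, on deposited intensities. The fitted difference was 1.03 ± 0.21 (adjusted p = 0.0144). Without the non-tumour array of mouse 1 that call was lost (adjusted p = 0.0514), and over all alternatives the adjusted p lay between 0.00417 and 0.992. On each tumour array exactly 8 probes were brighter than Apoa4, so quantile normalization gave it the same value on all 3.

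The gut epithelium list is given beside Apoa4, because the intestine is the main site of this transcript. Its 8 marker probes summed to 2503 to 3179 in tumours, 3206 to 3736 in non-tumour tissue and 1779 to 2173 in normal diet livers. They include Fabp2, an intestinal fatty acid binding protein gene, with 2368 ± 397 in tumours, 2894 ± 230 in non-tumour tissue (SD, n = 3 each) and 1032 ± 254 in normal diet livers (SD, n = 2). Of the 7 tested members 2 rose and 2 fell in non-tumour tissue over normal diet liver, and 0 rose and 3 fell in tumour over non-tumour tissue. Cdx1 averaged 55.0 in tumours, 158 in non-tumour tissue and 397.0 in normal diet livers, and Alpi 89.4, 142.8 and 308 in tumours, non-tumour tissue and normal diet livers. Cdx2 went the other way against normal diet, with 145.5 in tumours, 152.1 in non-tumour tissue and 106.85 in normal diet livers. Sis, the sucrase gene that defines enterocytes, was listed on 1 tumour array, at 1.8, and on none in non-tumour tissue or normal diet liver. The part of such cells in the Apoa4 values was not tested.

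Apoc2 encodes the cofactor of lipoprotein lipase. Its intensity was 14764, 14540.2 and 20257.5 in the tumours of mice 117, 186 and 1. In the non-tumour tissue of these mice it was 5975, 5805 and 6403, and in normal diet livers 2239 and 2121. The 3 groups were fully separated, and the tumour of mouse 1 was the highest array. Tumours exceeded the non-tumour tissue of their own liver 2.47-fold, 2.5-fold and 3.16-fold. The fitted change was 1.67 ± 0.11 in tumour over non-tumour tissue (adjusted p = 0.000436). It was 1.72 ± 0.12 in non-tumour tissue over normal diet liver (adjusted p = 0.00254). Tumours stood 3.39 ± 0.12 above normal diet liver (adjusted p = 5.14e-05).

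Apom encodes apolipoprotein M, an HDL protein that carries sphingosine-1-phosphate. Its intensity was 2035, 2285 and 2685 in the tumours of mice 117, 186 and 1, against 538, 448 and 431 in their non-tumour tissue and 842 and 1250 in normal diet livers. The groups did not overlap, and non-tumour tissue was the lowest. Within livers the tumour stood 3.78-fold, 5.1-fold and 6.23-fold above non-tumour tissue. Apom rose by 2.46 ± 0.16 in tumour over non-tumour tissue (adjusted p = 0.000423), where 41 genes had a larger absolute fitted change. It rose by 1.62 ± 0.18 in tumour over normal diet liver (adjusted p = 0.00157). In non-tumour tissue against normal diet liver the change was -0.84 ± 0.18 and was not called (adjusted p = 0.0585). This change passed with the blank mean subtracted (adjusted p = 0.047), an offset of 10 (adjusted p = 0.0261) and a trend (adjusted p = 0.0318). It also passed on the deposited values (-1.13, adjusted p = 0.0204), and its adjusted p over the alternatives lay between 0.0204 and 0.232.

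**Figure D3:**
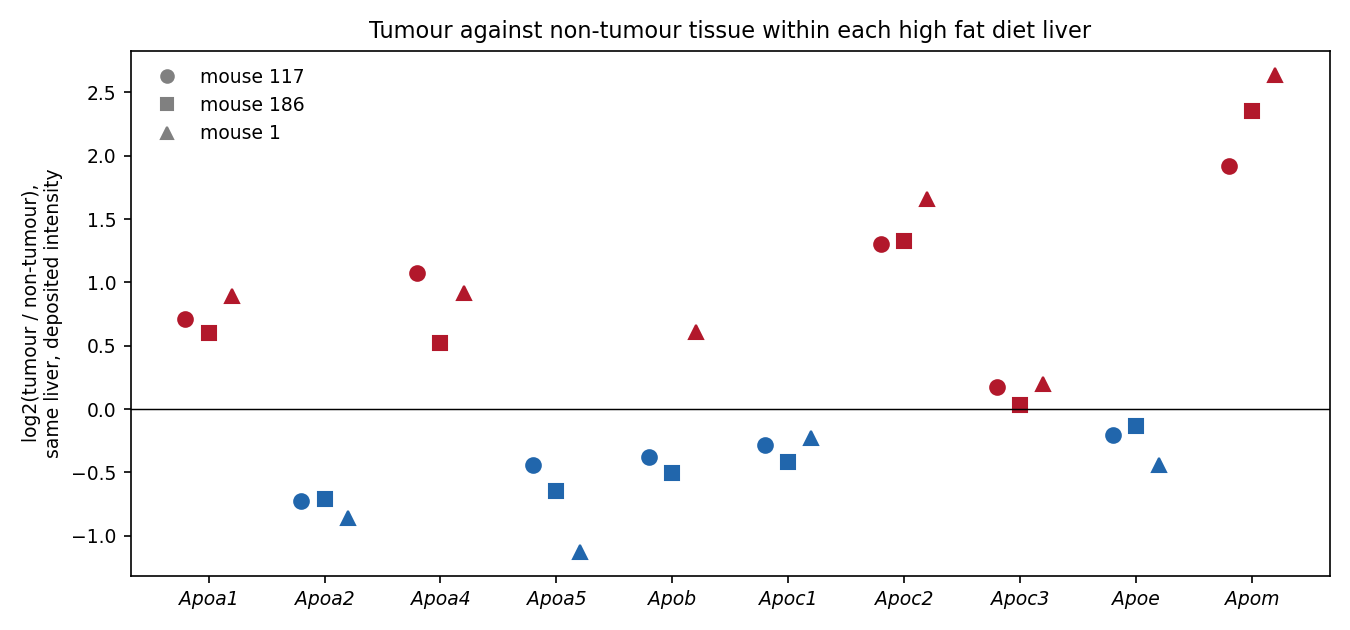
Log2 ratio of tumour over non-tumour tissue within each high fat diet liver, from deposited intensities, with 1 point per liver and gene, red above 0 and blue below. All 3 livers lie above 0 for Apoa1, Apoa4, Apoc2, Apoc3 and Apom and below 0 for Apoa2, Apoa5, Apoc1 and Apoe.

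Because Apoa4, Apoc2 and Apom showed the largest differences between groups, the 250 bases before their transcription starts are shown, from RefSeq (GRCm38.p6). Capitals mark matches to motifs searched on both strands. The windows are chr9:46240594-46240843 (plus strand) for Apoa4, chr7:19677942-19678191 (minus strand) for Apoc2 and chr17:35131802-35132051 (minus strand) for Apom.
Apoa4: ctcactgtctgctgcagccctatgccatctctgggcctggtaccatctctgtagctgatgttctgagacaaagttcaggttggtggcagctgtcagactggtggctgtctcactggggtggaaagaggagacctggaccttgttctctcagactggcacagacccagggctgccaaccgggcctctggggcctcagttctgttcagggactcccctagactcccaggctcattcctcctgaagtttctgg
Apoc2: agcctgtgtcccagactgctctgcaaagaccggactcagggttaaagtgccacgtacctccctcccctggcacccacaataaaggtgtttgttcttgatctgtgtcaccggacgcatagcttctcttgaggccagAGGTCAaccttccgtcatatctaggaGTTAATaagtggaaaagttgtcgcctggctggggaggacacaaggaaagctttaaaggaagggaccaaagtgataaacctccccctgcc
Apom: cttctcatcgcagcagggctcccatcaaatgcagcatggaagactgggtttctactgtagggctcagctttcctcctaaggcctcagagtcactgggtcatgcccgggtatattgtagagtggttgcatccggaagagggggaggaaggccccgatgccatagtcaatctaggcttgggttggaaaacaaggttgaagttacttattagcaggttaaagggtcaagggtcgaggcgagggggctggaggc
The Apoc2 window holds AGGTCA, a nuclear receptor half-site, 115 bases before the start, and GTTAAT, an HNF1 half-site, 89 bases before it. Of all 32851 such windows 14.0% hold AGGTCA and 6.43% hold GTTAAT on either strand, and AGGTCA can overlap CAAAGGTCA. The Apoa4 and Apom windows hold none of the motifs searched. Besides those named, these were the TATA box TATAAA, the CCAAT box, the HNF4 cores CAAAGTCCA and CAAAGGTCA, the C/EBP site TTGCGCAA, the E-box CACGTG and the CRE core TGACGT. Windows were matched for 8 of the 10 genes. Of all windows 12.4% hold TATAAA, 33.8% the CCAAT box, 0.384% CAAAGTCCA, 0.426% CAAAGGTCA, 0.164% TTGCGCAA, 6.02% CACGTG and 6.47% TGACGT.

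Apoa1 and Apoa2 encode the main structural proteins of HDL, and their changes in tumours had opposite signs. Apoa1 was 40812, 40399 and 41358 in the tumours of mice 117, 186 and 1, against 24984, 26575 and 22262 in their non-tumour tissue and 30440 and 34355 in normal diet livers. The tumours lay above all other arrays and close together. The within-liver ratios were 1.63, 1.52 and 1.86, and the fitted change was 0.86 ± 0.12 (adjusted p = 0.0032). Against normal diet liver tumours were higher by 0.77 ± 0.13 (adjusted p = 0.00667). This second call was lost on the deposited values (0.34, adjusted p = 0.115) and without the normal diet array 117 (adjusted p = 0.0508), over a range of 0.00276 to 0.242. Non-tumour tissue differed from normal diet liver by -0.10 ± 0.13 (adjusted p = 0.743), which was not called. In deposited intensity every non-tumour array lay below both normal diet livers. On those values the change was -0.40 (adjusted p = 0.161), or -0.28 relative to the median of all genes, and was not called either. A second, dim Apoa1 probe (77.1 to 213.2 on all arrays) gave log2 differences of 0.80 for tumour over non-tumour, -0.53 for non-tumour over normal diet and 0.27 for tumour over normal diet, with no test.

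Apoa2 was 24682, 23953 and 26299.6 in tumours, against 40776, 39210.3 and 47847 in the non-tumour tissue of the same mice and 45733 and 45924 in normal diet livers. Every tumour lay below every other array, while the other groups overlapped. Within livers the tumour held 0.605, 0.611 and 0.55 of the non-tumour intensity. Apoa2 fell by 0.59 ± 0.05 on the log2 scale in tumour against non-tumour tissue (adjusted p = 0.000714). It fell by 0.39 ± 0.05 against normal diet liver (adjusted p = 0.00363). On the deposited values these 2 changes were -0.77 and -0.88, or -0.69 and -0.68 relative to the median of all genes. Quantile normalization gave the Apoa2 probe the same value on the tumour arrays of mice 117 and 1. It did so too on the non-tumour arrays of mice 117 and 186, so the SE holds ties made by the normalization. Non-tumour tissue stood 0.21 ± 0.05 above normal diet liver without being called (adjusted p = 0.0989), a difference that passed when arrays were scaled to the same median (adjusted p = 0.0221) or without the tumour array of mouse 186 (adjusted p = 0.039), and was negative on the deposited values (-0.11). Its adjusted p over the alternatives lay between 0.0221 and 0.999. The annotation ties the Apoa2 probe to a transcript of the gene whose accession is of the non-coding type.

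Apob and Apoe encode the large structural protein of very low density lipoprotein and the remnant receptor ligand, and neither was called in any comparison. Apob was 689, 328 and 880.4 in the tumours of mice 117, 186 and 1, against 896, 464 and 579 in their non-tumour tissue and 561 and 581 in normal diet livers. Its tumour arrays spanned both normal diet livers, and the non-tumour tissue of mouse 117 was the highest array. In 1 of 3 livers the tumour was above the non-tumour tissue. The fitted differences were 0.15 ± 0.36 for tumour over non-tumour, 0.26 ± 0.41 for non-tumour over normal diet and 0.41 ± 0.41 for tumour over normal diet. The 95% interval of the first ran from -0.72 to 1.02, and changes within it could not be told from 0 here.

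Apoe was 38924, 41615 and 37121 in tumours, against 44762, 45645 and 50479 in the non-tumour tissue of the same mice and 49208 and 49404 in normal diet livers. Every tumour was below all other arrays in deposited intensity, yet the quantile-normalized difference from non-tumour tissue was -0.15 ± 0.07 and not called (adjusted p = 0.15). Quantile normalization gave Apoe the same value on both normal diet arrays and the tumour array of mouse 1. It did so too on both arrays of mouse 186, so differences and SEs of Apoe hold ties made by the normalization. In non-tumour tissue over normal diet liver the difference was 0.25 ± 0.07 (adjusted p = 0.135). It passed with arrays scaled to the same median (0.37, adjusted p = 0.0155) and without the tumour array of mouse 186 (0.24, adjusted p = 0.0373), was -0.072 on the deposited values, and had an adjusted p of 0.0155 to 0.999 over the alternatives. Tumour over normal diet was 0.09 ± 0.07 (adjusted p = 0.408). The tumour over non-tumour difference passed when arrays were scaled to the same median (adjusted p = 0.02) and without the tumour array of mouse 186 (adjusted p = 0.013), over a range of 0.013 to 0.745. The Apoe spot reached 77.4% to 100% of the highest spot on its array, and no spot on any array read the top value of the scanner's scale. Apoa2 reached 49.3% to 94.8%, Apoa1 44.1% to 86.2% and Apoa4 in high fat diet tissue 35.4% to 77% of the highest spot. Whether the folds of these bright probes are compressed was not tested.

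Apoa5, Apoc3 and Apoc1 act on lipoprotein lipase, and none was called in any comparison of the main test. Apoa5 was 4533, 3546 and 2722 in the tumours of mice 117, 186 and 1, against 6161, 5557 and 5943 in their non-tumour tissue and 6380.3 and 5830.3 in normal diet livers. All tumours were below all other arrays. The fitted difference of -0.45 ± 0.21 in tumour over non-tumour tissue was not called (adjusted p = 0.179). It passed on the deposited values (adjusted p = 0.0178) and with arrays scaled to the same median (adjusted p = 0.039), over a range of 0.0178 to 0.853. Tumour over normal diet was -0.32 ± 0.24 (adjusted p = 0.37) and passed on the deposited values (adjusted p = 0.0176, over a range of 0.0176 to 0.953). Non-tumour over normal diet was 0.13 ± 0.24 (adjusted p = 0.822).

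Apoc3 was 21547, 15591 and 22189.6 in tumours, against 19088, 15261.5 and 19345 in the non-tumour tissue of the same mice and 21134 and 20182.5 in normal diet livers. Both high fat diet groups overlapped, and the liver of mouse 186 was the lowest in each. Within livers the tumour was 1.13, 1.02 and 1.15 times the non-tumour tissue. Without the mouse as a block the difference was 0.37 ± 0.12 (adjusted p = 0.0632). With the mouse as a block it was 0.33 and was called (adjusted p = 0.0192). Without the tumour array of mouse 186 it was also called (adjusted p = 0.0108), and the adjusted p over all alternatives lay between 0.0108 and 0.636. Tumour over normal diet was 0.29 ± 0.13 (adjusted p = 0.145), and was called without the tumour array of mouse 186 (adjusted p = 0.022, over a range of 0.022 to 0.783). Non-tumour over normal diet was -0.07 ± 0.13 (adjusted p = 0.82).

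Apoc1 was 19991.5, 16602 and 23239.9 in tumours, against 24369, 22218 and 27162 in the non-tumour tissue of the same mice and 28893 and 24218.5 in normal diet livers. The tumour was below the non-tumour tissue in each liver, at 0.82, 0.747 and 0.856 of it, while tumours and non-tumour tissue overlapped as groups. Every tumour lay below both normal diet livers in deposited intensity. The fitted differences were -0.13 ± 0.09 for tumour over non-tumour (adjusted p = 0.344), 0.18 ± 0.10 for non-tumour over normal diet (adjusted p = 0.369) and 0.05 ± 0.10 for tumour over normal diet (adjusted p = 0.752). On the deposited values the last was -0.42 (adjusted p = 0.115), where the median of all genes shifted by -0.198, which leaves -0.22 for Apoc1.

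Of the members, 4 lie in a gene cluster on chromosome 9 and 3 in one on chromosome 7 (GRCm38.p6). Apoa1 (46228630 to 46230469), Apoc3 (46233050 to 46235636), Apoa4 (46240844 to 46243458) and Apoa5 (46268608 to 46271921) span 43292 bases of the first. In tumour over non-tumour tissue their log2 changes in this order were 0.86, 0.37, 1.03 and -0.45, of which those of Apoa1 and Apoa4 were called and those of Apoc3 and Apoa5 were not. In non-tumour over normal diet they were -0.10, -0.07, 5.59 and 0.13, and that of Apoa4 was called.

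Apoc2 (19671579 to 19677941), Apoc1 (19689480 to 19692659) and Apoe (19696244 to 19701310) span 29732 bases of the second, and Apoc4 lies between Apoc2 and Apoc1. The rise of Apoc2 by 1.67 in tumour over non-tumour tissue stood beside -0.13 for Apoc1 and -0.15 for Apoe, neither of them called. Apoc4 fell, with 5887 ± 174 in tumours and 9342 ± 983 in non-tumour tissue (SD, n = 3 each, log2 fold change -0.33 ± 0.08, adjusted p = 0.0222). That call was lost with the mouse as a block (adjusted p = 0.0716), with the blank mean subtracted (0.0794) and with a trend (0.0573). It was also lost without the non-tumour or the tumour array of mouse 117 (adjusted p = 0.0508 and 0.0588) or of mouse 1 (0.0707 and 0.0589). Apoa2 lies on chromosome 1 (171221564 to 171226379), Apob on chromosome 12 (7977629 to 8016839) and Apom on chromosome 17 (35128997 to 35131801).

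For Apoa4, Apoc2 and Apom, whose group means differ by more than 1 log2 unit, the 3 genes of most similar pattern were found. The measure was the root mean square difference of centred log2 values over the 8 arrays, among 15338 other genes listed on all arrays. Nearest to Apoa4 were Ly6d, a lymphocyte surface antigen gene, at 0.72, Prkcq, a protein kinase C gene, at 0.83 and Cyp2b9, a cytochrome P450 gene, at 0.92. Ly6d was 7663 ± 2183 in tumours, 1593 ± 287 in non-tumour tissue (SD, n = 3 each) and 25.4 ± 1.98 in normal diet livers (SD, n = 2).

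Nearest to Apoc2 were Cyp17a1, a steroid hydroxylase gene, at 0.17, Nkapd1 at 0.20 and Arr3, an arrestin gene, at 0.26. Cyp17a1 was 723 ± 281 in tumours, 197 ± 31.0 in non-tumour tissue (SD, n = 3 each) and 22.7 ± 0.566 in normal diet livers (SD, n = 2). Nearest to Apom were Cyp51, a cholesterol synthesis enzyme gene, at 0.20, Serpinf2, the antiplasmin gene, at 0.29 and Fkbp11, a prolyl isomerase gene of the endoplasmic reticulum, at 0.29. Serpinf2 was 4020 ± 300.3 in tumours, 1229 ± 86.8 in non-tumour tissue (SD, n = 3 each) and 2364 ± 3.68 in normal diet livers (SD, n = 2). These are the closest patterns in 8 arrays and carry no test.

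**Figure D4:**
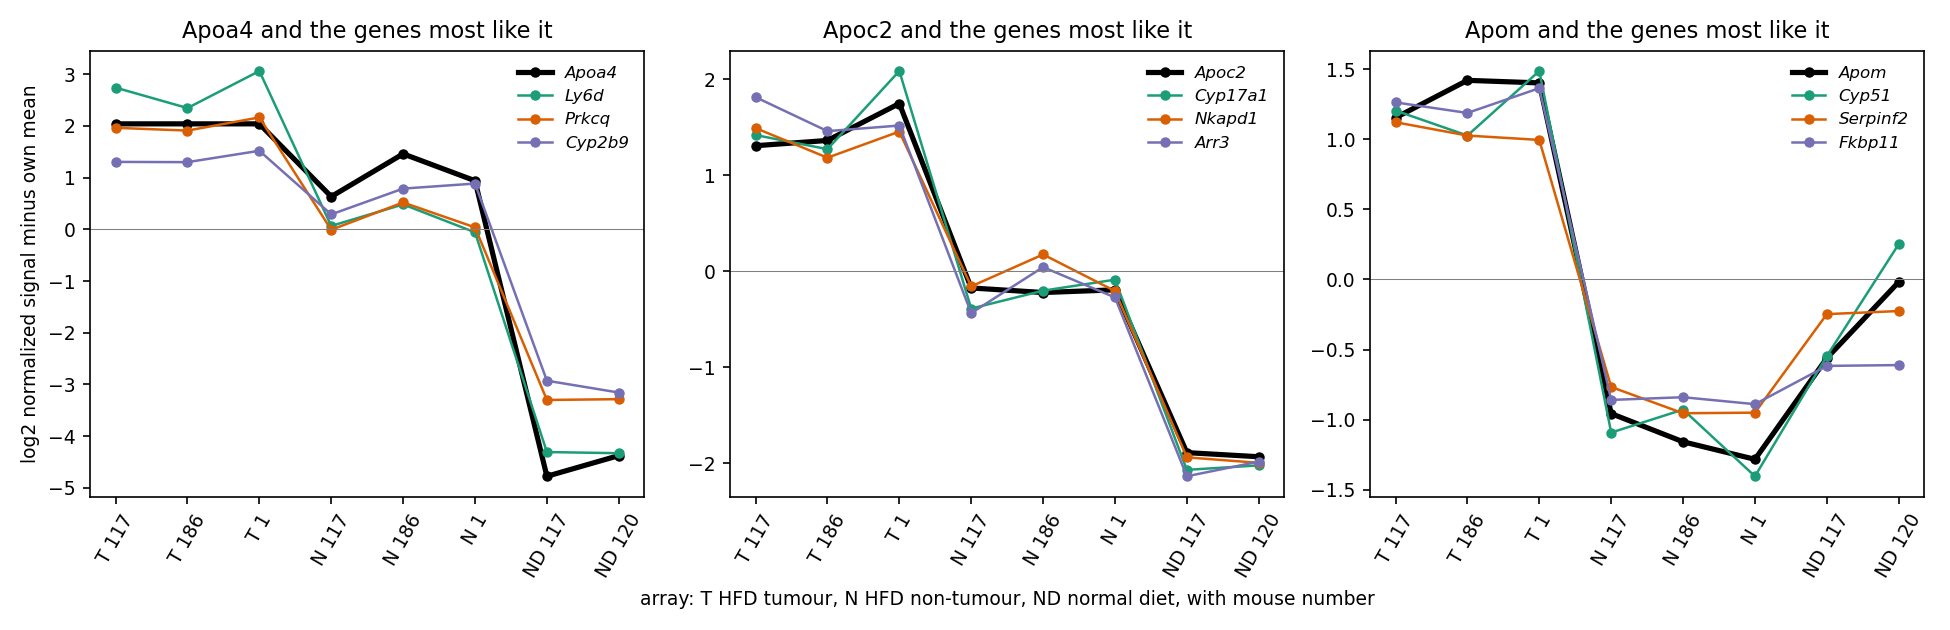
Log2 normalized signal minus each gene's own mean on the 8 arrays, for Apoa4, Apoc2 and Apom (black) and the 3 genes nearest to each. Arrays run from tumours (T) over non-tumour tissue (N) to normal diet (ND), with mouse numbers. Apoa4 and Apoc2 step down from tumour to non-tumour to normal diet, while Apom is lowest in non-tumour tissue.

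Genes that load, ship, process and clear lipoproteins had calls in both directions in tumours, where 25.4% of all tested genes were called against non-tumour tissue. Of the lipoprotein assembly and secretion list, 27 of 30 had a probe in the tables used. In tumour over non-tumour tissue 6 rose, 3 fell and 18 were not called, with a median log2 change of 0.08. Tm6sf2, which promotes lipid loading of very low density lipoprotein, was 385 ± 83.3 in tumours and 202 ± 43.7 in non-tumour tissue (SD, n = 3 each, 0.97 ± 0.14, adjusted p = 0.00369). Ces1g, a carboxylesterase gene, was 159 ± 53.9 in tumours and 965 ± 129 in non-tumour tissue (SD, n = 3 each, -2.16 ± 0.22, adjusted p = 0.00123). Mcfd2 and Surf4, which serve cargo export from the endoplasmic reticulum, rose by 0.73 ± 0.10 and 0.54 ± 0.08 (adjusted p = 0.00327 and 0.00502), and both calls were lost on the deposited values (adjusted p = 0.0573 and 0.0838).

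Of the plasma lipases and remodelling list, 15 of 18 had a probe, and 4 rose, 5 fell and 6 were not called in tumour over non-tumour tissue, with a median of -0.06. Lpl, the lipoprotein lipase gene itself, was 329 ± 11.2 in tumours and 151 ± 57.5 in non-tumour tissue (SD, n = 3 each, 1.11 ± 0.21, adjusted p = 0.0109). Pon1, the paraoxonase carried on HDL, was 1121 ± 453 in tumours and 6774 ± 992 in non-tumour tissue (SD, n = 3 each, -2.36 ± 0.33, adjusted p = 0.0038). Pla2g12b, a gene needed in mice for normal triglyceride secretion, rose by 0.97 ± 0.12 (adjusted p = 0.00233).

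Among the lipoprotein receptors and uptake genes, 20 of 24 had a probe, and 3 rose, 4 fell and 13 were not called in tumour over non-tumour tissue (median -0.05). Scarb1, the HDL receptor gene, was 305 ± 73.4 in tumours and 151 ± 20.2 in non-tumour tissue (SD, n = 3 each, 0.98 ± 0.13, adjusted p = 0.00351). Lsr, a lipoprotein receptor gene, rose by 0.90 ± 0.11 (adjusted p = 0.00208). All 8 sterol efflux transporters had a probe, and 2 rose, 1 fell and 5 were not called (median 0.00). Npc2, which carries cholesterol out of lysosomes, rose by 0.66 ± 0.08 (adjusted p = 0.0019).

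Of the regulators of apolipoprotein genes, 36 of 41 had a probe and 35 were tested. In tumour over non-tumour tissue 4 rose, 10 fell and 21 were not called, with a median of -0.14. Foxa3, a liver forkhead factor gene, was 162 ± 41.1 in tumours and 63.6 ± 9.19 in non-tumour tissue (SD, n = 3 each, 0.99 ± 0.15, adjusted p = 0.00543). Pparg, a nuclear receptor gene of lipid storage, was 109 ± 8.62 in tumours and 262 ± 33.6 in non-tumour tissue (SD, n = 3 each, -0.89 ± 0.10, adjusted p = 0.00151). Ppargc1a, a coactivator gene, rose by 0.86 ± 0.07 (adjusted p = 0.000638), a call lost with the mean over all its probes (0.25, adjusted p = 0.05). Of 23 list calls eligible for naming in this comparison, 18 held without each array in turn.

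In non-tumour tissue, where 3.84% of all tested genes were called against normal diet liver, 1 assembly gene of 27, 2 lipase and remodelling genes of 15, 2 receptor genes of 20, 1 efflux transporter of 8 and 1 regulator of 35 rose, and 1 lipase and remodelling gene, Gpld1, fell. Plin2, a lipid droplet coat gene, was 5525 ± 699 in non-tumour tissue (SD, n = 3) and 2460.3 ± 112 in normal diet livers (SD, n = 2), a change of 1.41 ± 0.16 (adjusted p = 0.00978). Cd36, a fatty acid uptake receptor gene, was 1926 ± 112 in non-tumour tissue (SD, n = 3) and 391 ± 116 in normal diet livers (SD, n = 2), a change of 2.33 ± 0.31 (adjusted p = 0.0168). Of 11 such list calls, those of serum amyloid genes included, 10 were lost without at least 1 of the 8 arrays. Those of Plin2 and Cd36 were lost without either normal diet array (adjusted p = 0.0747 and 0.0715 for Plin2, 0.0678 and 0.121 for Cd36, without 117 and 120 in this order).

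In tumour over normal diet liver, where 27.8% of all tested genes were called, 8 assembly, 5 lipase and remodelling, 5 receptor, 2 efflux and 5 regulator genes rose. In the same order 3, 5, 3, 1 and 9 genes fell. Pon1 was 1121 ± 453 in tumours (SD, n = 3) and 12901 ± 615 in normal diet livers (SD, n = 2, -3.02 ± 0.37, adjusted p = 0.00225). Gpld1, the gene of an HDL-associated phospholipase D, was 168 ± 14.4 in tumours (SD, n = 3) and 924 ± 42.6 in normal diet livers (SD, n = 2, -1.86 ± 0.15, adjusted p = 0.000541). Lpl rose by 1.61 ± 0.24 (adjusted p = 0.00402) and Scarb1 by 1.25 ± 0.15 (adjusted p = 0.00211).

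**Figure D5:**
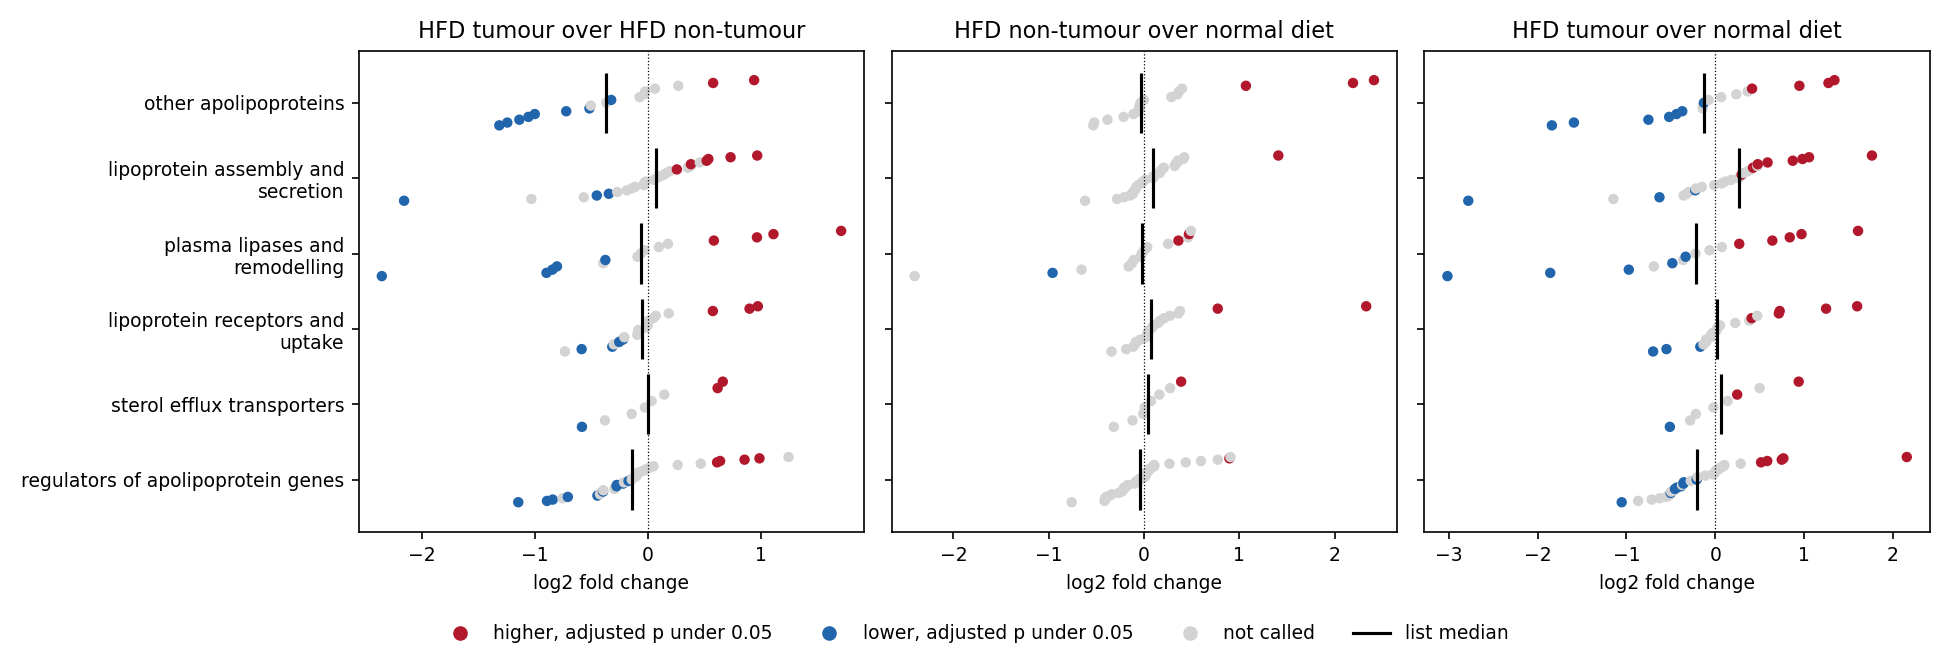
Log2 fold changes of the tested genes of each lipoprotein gene list in the 3 comparisons, with red points called higher, blue points called lower and grey points not called. Vertical bars are list medians, which lie between -0.37 (other apolipoproteins, tumour over non-tumour) and 0.26 (assembly and secretion, tumour over normal diet).

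Cell type markers moved between the groups too, and their part in the changes above was not tested. The summed intensity of the 20 hepatocyte markers ran from 355654 to 421466 in tumours, 304212 to 347581 in non-tumour tissue and 442686 to 458596 in normal diet livers. In tumour over non-tumour tissue 9 of the 20 rose and 5 fell. The sum is weighted to its brightest probes, such as Alb, which averaged 47269 in tumours and 46977 in non-tumour tissue. Ahsg averaged 39647 in tumours and 18293 in non-tumour tissue. Pck1 averaged 1473 and 6405, and G6pc 483 and 2635, in the same order. The 19 macrophage marker probes summed to 2800 to 3803 in tumours, 3897 to 4647 in non-tumour tissue and 2409 to 3118 in normal diet livers. Of these 19, 2 rose and 3 fell in tumour over non-tumour tissue. Cd9 averaged 845 in tumours and 231 in non-tumour tissue, while Clec4f averaged 71.3 and 283 and Cd5l 290 and 728 in the same order. The 9 cholangiocyte marker probes summed to 590.3 to 1097 in tumours, 148 to 232 in non-tumour tissue and 227 to 314 in normal diet livers. In tumour over non-tumour tissue 2 of the 9, Cdh1 and Prom1, rose, 1, Cftr, fell and the other 6, Krt19, Krt7 and Sox9 among them, were not called. Cdh1 averaged 610.4 in tumours and 53.9 in non-tumour tissue, and Krt19 averaged 11.5 in tumours and 15.9 in non-tumour tissue. The 14 stellate cell and fibroblast probes summed to 1602 to 2612 in tumours, 2255 to 2902 in non-tumour tissue and 1651 to 1678 in normal diet livers. Of these 14, 1 rose (Col3a1, 573 in tumours and 354 in non-tumour tissue) and 3 fell (Lrat, Colec11 and Ecm1) in tumour over non-tumour tissue. The 4 red blood cell probes summed to 124 to 134 in tumours, 359 to 424 in non-tumour tissue and 496 to 598 in normal diet livers, and the 3 tested fell in tumour over non-tumour tissue. The 12 endothelial probes summed to 678 to 1017 in tumours, 929 to 996 in non-tumour tissue and 958 to 1216 in normal diet livers, and the 6 adipose probes to 36.3 to 45.7 in tumours, 60.2 to 77.2 in non-tumour tissue and 38.6 to 46.3 in normal diet livers. Of the 11 endothelial markers tested 2 rose and 0 fell in tumour over non-tumour tissue. Clec4g averaged 295 in tumours and 499 in non-tumour tissue, and Cd34 averaged 46.9 in tumours and 9.6 in non-tumour tissue. Lymphocyte probes (11) summed to 88.8 to 105 in tumours, 87.5 to 99.9 in non-tumour tissue and 99.8 to 114 in normal diet livers, and neutrophil probes (9) to 382 to 526 in tumours, 479 to 507 in non-tumour tissue and 345 to 397 in normal diet livers. Adipoq was listed on none of the arrays.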

How the data were processed

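Total RNA of 8 mouse liver samples was amplified and coupled to Cy5, per the labels' protocols, and read on 1 array each. Per the file headers, each deposited scanner file gives an intensity (spot median) per spot merged from several scanner gains. The deposited value table holds the authors' normalized intensity, in which dim probes have no value, and it was used for levels. Arrays count as separate samples in the main test, which does not pair the tumour and non-tumour arrays of a liver. The p values measure the spread between samples only.

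Of 23473 probes 20690 had 1 gene symbol. They named 19321 genes, each read from its brightest probe on average. Testing required a listed value on every array of 1 or more groups, which 16798 genes had. Normexp background correction of spot medians took the 2736 blank spots for negative controls and added an offset of 50. Quantile normalization and log2 followed. The offset understates folds of dim genes. Group means over all 8 arrays were compared with limma 3.58.1 in R 4.3.3 (2-sided, Benjamini-Hochberg, 5 residual and 1.49 prior degrees of freedom). The model was tested on simulated data. Tables and figures used pandas 2.3.3 and matplotlib 3.10.9 in Python 3.11.15.

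Per the labels, a mouse number shared by a tumour and a non-tumour array marks 1 liver. Their deviations from the group means correlated at 0.443, 0.148 and 0.167, against -0.275 to 0.028 for different mice. The mouse entered an alternative as a block. The number of arrays limits the precision. On the deposited values the median gene shifted by -0.0801, -0.121 and -0.198 on the log2 scale in the 3 comparisons, so ratios of intensities carry that shift. Alternatives covered background, offset, scaling, filter, probe choice and each array left out. Members and lists were chosen with earlier results of these data known. Named list genes come from the up to 4 called members per list and comparison with the largest change, of which the text takes a part. Apoc4, Fabp2 and the cell type markers with values were named after their values were seen.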

Additional observations from a re-analysis of the deposited data

How the results depend on the processing

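Of 12 called member results, 208 of 221 values under 19 alternatives kept direction and call, 13 lost the call and 0 reversed, and 10 of the losses came from normexp with the local background. Of 18 member results not called, 288 of 329 values kept direction and side, 17 passed and 24 reversed. Among 86 called results of other named genes, 1388 of 1581 values kept both, 191 lost the call (70 of them with local background) and 2 reversed.

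With the local background, members called fell to 1 higher and 0 lower in tumour over non-tumour, 0 and 0 in non-tumour over normal diet, and 1 and 0 in tumour over normal diet, with 95 and 30, 0 and 3, and 130 and 87 called over all genes. That reading followed its own spot (Spearman 0.902 to 0.96 per array). On the tumour array of mouse 186 Apoa4 read 43838 with a local background of 42548. Reversals there were Apob -0.20 in tumour over non-tumour, Apoc1 -0.52 in non-tumour over normal diet, and Apoa5 0.24, Apob -0.19, Apoc1 -0.65 and Apoe -0.17 in tumour over normal diet, none called. Saa1 (0.055) and Fabp2 (0.14) in tumour over non-tumour, Apoc4 (0.090) in non-tumour over normal diet and Rora (-0.30) in tumour over normal diet reversed too.

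Scaling to the same median gave 3 members lower in tumour over non-tumour and 4 higher in non-tumour over normal diet, with 1084 genes higher there and 4188 lower in tumour over normal diet. It reversed Apob in tumour over non-tumour (-0.047) and Apoa1 (0.048), Apoc3 (0.23) and Apoc4 (0.15) in non-tumour over normal diet. The authors' deposited values gave 2 members lower in tumour over non-tumour, 1 in non-tumour over normal diet and 2 in tumour over normal diet. They reversed Apob in tumour over non-tumour (-0.092), Apoa2 (-0.11), Apoa5 (-0.052), Apoc1 (-0.11) and Apoe (-0.072) in non-tumour over normal diet, and Apoc1 (-0.42), Apoc3 (-0.080) and Apoe (-0.33) in tumour over normal diet. Blank subtraction, an offset of 10 and a trend each gave 1 member, Apom, lower in non-tumour over normal diet, and the offset 481 genes higher. The cause of these moves was not tested.

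Leaving out 1 array at a time gave 3 to 5 members higher and 1 to 2 lower in tumour over non-tumour, 2 to 4 and 0 to 0 in non-tumour over normal diet, and 3 to 5 and 1 to 1 in tumour over normal diet. Without the tumour array of mouse 186 there were 2 lower in the first and 4 higher in the second, and it gave the 5 higher. The 3 higher came without non-tumour 1 in the first and normal diet 117 in the last. Over all genes the counts were 1468 to 2080 and 1643 to 2095, 47 to 391 and 56 to 388, and 1036 to 2164 and 1283 to 2373. The normal diet comparisons were smallest without a normal diet array (59 and 73 without 117, 47 and 56 without 120 for non-tumour, 1036 and 1283, and 1126 and 1352 for tumour), which leaves 1 array assumed to vary like the others. Without non-tumour 117, 186 and 1 non-tumour over normal diet gave 137 and 117, 132 and 124, and 190 and 179. Values crossing 0 were those of Apob (-0.089 to 0.55) and Fabp2 (-0.18 to 0.070) in tumour over non-tumour, Apoa1 (-0.21 to 0.022), Apoc3 (-0.13 to 0.0024) and Apoc4 (-0.11 to 0.0093) in non-tumour over normal diet, and Apoc1 (-0.039 to 0.11) in tumour over normal diet.

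The mouse as a block gave 5 members higher and 1 lower, with 1764 and 1948 over all genes, and among members changed only the call of Apoc3. A slide or scan batch could not be set as a block, because the files used here give none.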

Other observations

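Of 18 other apolipoprotein genes 17 were tested. In tumour over non-tumour tissue, where 25.4% of all tested genes were called, 2 rose, 8 fell and 7 were not called, with a median log2 change of -0.37 beside -0.01 over all genes. Clu, the gene of the HDL protein clusterin, was 11810 ± 1489 in tumours and 7558 ± 1453 in non-tumour tissue (SD, n = 3 each, 0.94 ± 0.11, adjusted p = 0.00175). Saa1 and Saa2, acute phase apolipoproteins of HDL, were 1416 ± 154 and 661 ± 47.1 in tumours, against 4191 ± 970 and 1814 ± 140.5 in non-tumour tissue (SD, n = 3 each), with changes of -1.25 ± 0.23 and -1.14 ± 0.16 (adjusted p = 0.00992 and 0.00356). Apol7a, of the apolipoprotein L family, was 189 ± 35.0 in tumours and 618 ± 180 in non-tumour tissue (SD, n = 3 each, -1.32 ± 0.20, adjusted p = 0.0046).

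In non-tumour tissue over normal diet liver 3 rose, Saa1, Saa2 and Saa3, and 0 fell. Saa2 was 1814 ± 140.5 in non-tumour tissue (SD, n = 3) and 343 ± 117 in normal diet livers (SD, n = 2), a change of 2.41 ± 0.18 (adjusted p = 0.00254) that was called without each array in turn. Saa1 and Saa2 are near-identical copies, so their probes may share signal. In tumour over normal diet liver 4 rose and 7 fell, and Clu (1.34 ± 0.12, adjusted p = 0.000706) and Apol7a (-1.84 ± 0.22, adjusted p = 0.00203) kept the signs they had against non-tumour tissue.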
